A study of Mus musculus with 11 samples.

Results

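Infarcted left ventricle of control mice was compared with naive left ventricle of control mice by RNA sequencing. All 25006 genes counted in these hearts were members of the comparison, and 5 of the 11 libraries of the series entered it, each from 1 mouse. Myocardial infarction (MI) was made by permanent ligation of the left anterior descending coronary artery in the mice M006, M38 and M40, and infarcted tissue was collected 9 days later by the labels and methods, though the paper's results speak of a week. The mice M44 and M45 were naive, and a matching area and mass of left ventricle was taken from them. The genotype field of the labels gives both groups as Vegfc fl/fl, which would carry floxed Vegfc alleles and no Cre. The labels' protocol and the paper's methods give the controls as LysMCre mice, which would carry Cre in myeloid cells and no floxed allele, and a figure legend of the paper names C57BL/6 or Vegfc fl/fl mice, so which allele, if any, the groups share is not settled. Age and sex are not given in the sources used here. The other 6 libraries came from mice that lack Vegfc in myeloid cells, and they entered the fit to share the estimate of the spread and for the comparison between genotypes at the end.

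When a coronary artery is closed, the heart muscle it supplies dies and is cleared by neutrophils, monocytes and macrophages. Fibroblasts then divide, take on a contractile and matrix-secreting state, and lay down a collagen scar in place of the lost cardiomyocytes. Cardiomyocytes are the cells that hold the sarcomeres, the calcium store and most of the mitochondria of the ventricle, and they draw most of their energy from fatty acids.

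Total counts were 12814385 and 13319313 in the naive libraries and 15709080 to 26782728 in the MI libraries, and the 3 counts taken as the detection floor were worth 0.101 to 0.272 CPM (counts per 1000000 counts of the library), covering counting error only. Levels are given as CPM scaled by edgeR's TMM factors, naive hearts in the order M44 and M45 and MI hearts in the order M006, M38 and M40. Xist, the noncoding RNA of the inactive X chromosome, was at 0.624 and 1.27 CPM in the naive hearts and at 365, 188 and 353 CPM in the MI hearts, and Eif2s3y of the Y chromosome was at 88.5 and 93.3 CPM and at 0, 0.101 and 0 CPM. The groups did not overlap in either gene, so whatever differs between hearts with and without a Y chromosome cannot be told apart from MI, and X and Y genes were kept out of the rankings. Vegfc, the gene of the series' knockout, was at 25.1 and 34.7 CPM and at 45.5, 21.9 and 25.8 CPM, with groups that overlapped (log2 fold change 0.05, SE 0.29, edgeR adjusted p = 0.888). Markers of ventricle were at high levels in the naive hearts, where Myl2, the ventricular regulatory light chain, was at 22034 and 26932 CPM and the atrial gene Sln had 0 and 1 counts.

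Of 14779 genes with enough counts to test, 7450 (50.4%) differed between MI and naive control hearts (adjusted p under 0.05, quasi-likelihood test of edgeR, Benjamini-Hochberg). In 3882 genes (26.3%) the level was higher after MI and in 3568 (24.1%) it was lower, so 52.1% of the calls were higher. When counts were scaled by library totals alone, 6864 genes were called higher and 2145 lower, 76.2% of the calls were higher, and the median of all genes moved up by 0.446 on the log2 scale. None of the genes called lower with TMM scaling was called higher with library totals alone (0 genes), and 2145 of them were still called lower. The median log2 fold change of all genes tested was 0.13 with TMM scaling. Each list below is read beside this median and beside the 26.3% of genes called higher and 24.1% called lower. A change of at least 1 on the log2 scale was called in 2370 genes that rose and 2180 that fell, and one of at least 3 in 525 and 264 genes. Of the 14779 genes tested, the MI hearts lay wholly above the naive hearts in 5779 and wholly below them in 4871. Most genes thus had groups that did not overlap, and later statements of no overlap are read beside these counts. Without naive M44 the calls were 2217 higher and 2663 lower, and without naive M45 they were 2098 and 2476. Each of these leaves 1 naive heart, which is then assumed to vary like the other groups. Of the 170 called genes with values below, 34 lost the call without M44 and 36 without M45, Apoe, C1qb and Trem2 among those lost without M44. These p-values rest on a spread between mice estimated over all 4 groups of the series, Vegfc-deficient hearts included, and not on the control hearts alone. In bulk tissue, fewer cells of a type and less RNA per cell cannot be told apart.

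Genes called higher held 6.80% and 6.23% of the summed TPM (transcripts per 1000000, a level per transcript length) in the naive hearts M44 and M45, and 27.6%, 28.9% and 35.2% in the MI hearts M006, M38 and M40. Genes called lower held 68.6% and 69.5% in the naive hearts and 30.6%, 30.2% and 20.2% after MI. These shares are a description of genes chosen on the same hearts, and M40 lay farthest from the naive hearts in both. By difference in mean TPM, the 10 largest gains among autosomal genes were in Apoe, Mgp, Sparc, Lgals1, Nppa, Col3a1, Igfbp7, C1qb, Postn and Cd74. The 10 largest losses were in Mb, Myl2, Actc1, Cox8b, Cox6a2, Myl3, Tnni3, Cox7a1, Tnnc1 and Slc25a4, all of them genes of cardiomyocyte contraction, oxygen storage or mitochondrial energy supply.

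Apoe, the apolipoprotein that macrophages secrete as they unload cholesterol, was at 1832 and 1951 TPM in the naive hearts and at 9570.3, 9413 and 14053 TPM after MI. Sparc, a secreted protein that binds collagen during its assembly, went from 770.4 and 629 TPM to 8676, 6307 and 10721 TPM. Mgp, the matrix Gla protein that inhibits calcification, went from 2064 and 1665 TPM to 14030.2, 7056 and 10658 TPM. In all of these genes every MI heart lay above both naive hearts. Postn encodes periostin, the matricellular protein of activated fibroblasts. It was at 47.7 and 33.2 TPM in naive hearts and at 3468, 2690.1 and 4074 TPM after MI. Its fitted rise in TMM-scaled counts was 51.4-fold (log2 fold change 5.68, SE 0.52, edgeR adjusted p = 0.000137). TPM was not scaled by the TMM factors, so a fitted fold change is not the ratio of the TPM values beside it. In the genes of these rankings, rises were larger and falls smaller in TPM than in the fit. The mean of Apoe was 1891 TPM in naive and 11012 TPM in MI hearts, beside a fitted rise of 3.52-fold. Mb, the myoglobin gene, was the most abundant of the 10 losses, at 53314 and 51821 TPM in the naive hearts and 13690.1, 16223 and 2328 TPM after MI (log2 fold change -2.94, SE 0.80, edgeR adjusted p = 0.0117). M40 had less Mb than the other MI hearts by a wide margin, and the same held for each of the other 9 losses. Without MI M40 the log2 fold change of Mb was -2.45, and without M38 it was -3.53. The calls of Lgals1, a secreted galectin, and of Cd74, the class II invariant chain, were lost without M40 (0.84) and without M38 (0.63). Both calls were also lost without either naive heart. Without M44 and without M45 the log2 fold changes were 1.11 and 1.09 in Lgals1 and 1.90 and 2.43 in Cd74.

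**Figure D1:**
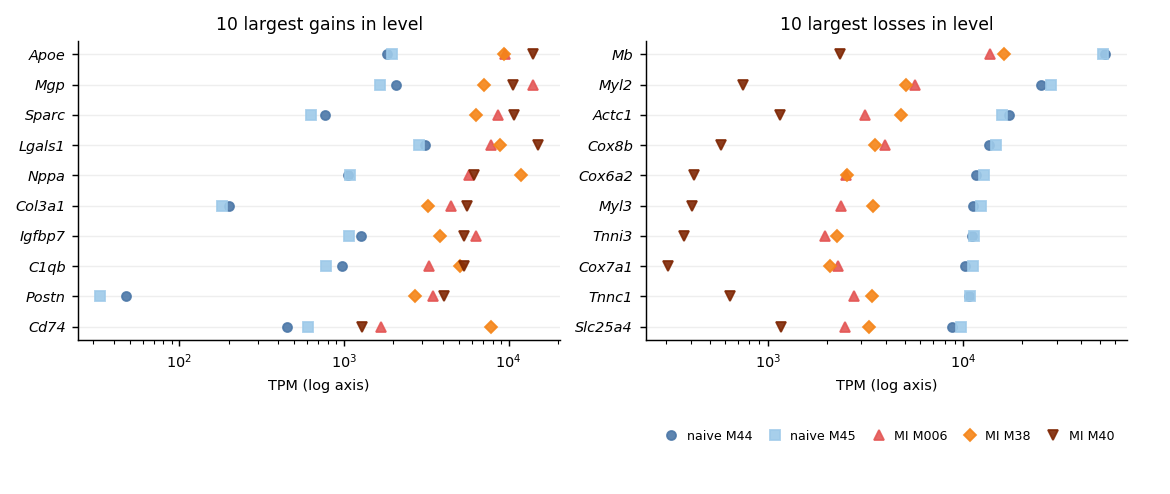
Level in TPM, on a log axis, of the 10 autosomal genes with the largest gain and the 10 with the largest loss after MI, with 1 point per control heart. Every MI heart lies above both naive hearts in the gains and below both in the losses, and M40 is the lowest heart in all 10 losses.

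Ranked by fold change, with X and Y genes and genes under a mean of 10 CPM in the higher group left out, the 12 largest rises were in Adamts16, Pdcd1, Cemip, P4ha3, C1qtnf3, Col11a1, Cthrc1, Chad, Col8a2, Acan, Col12a1 and Cdh3. Most of these build, modify or bind extracellular matrix. Adamts16 (ENSMUSG00000049538, GRCm38 chromosome 13, 70727802-70841811), a secreted metalloprotease, had 0 counts in both naive hearts and was at 5.54, 10.7 and 15.2 CPM after MI, at least 38.8-fold higher. Cemip, which takes part in the breakdown of hyaluronan, was at 0.0892 and 0.0906 CPM in naive hearts, 1 count in each, and at 38, 90.2 and 128 CPM after MI. The ratio of summed counts was 1012 (95% interval 280.1 to 8358, counting error only). All 3 MI hearts were far above the naive hearts in both genes.

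Cthrc1 (ENSMUSG00000054196, GRCm38 chromosome 15, 39076932-39087121) is a secreted protein known from activated fibroblasts of injured hearts. Its level was 1.69 and 2.08 CPM in naive hearts and 468, 495 and 740.1 CPM after MI, a fitted rise of 299.6-fold (log2 fold change 8.23, SE 0.88, edgeR adjusted p = 0.000197). P4ha3, a subunit of the enzyme that hydroxylates proline in collagen, went from 0.357 and 0.0906 CPM to 67.7, 89.4 and 122 CPM (log2 fold change 8.65, SE 1.08, edgeR adjusted p = 0.000321). C1qtnf3, a secreted protein of the C1q and TNF superfamily, went from 0.446 and 0.815 CPM to 153, 429 and 121 CPM (log2 fold change 8.52, SE 0.90, edgeR adjusted p = 0.000186), highest in M38. The cartilage genes Chad (chondroadherin) and Acan (aggrecan) were close to absent from naive hearts. Chad had 1 count in the naive libraries and was at 13.1, 12 and 7.48 CPM after MI, a ratio of summed counts of 237.2 (95% interval 42.4 to 9379). Acan was at 0.268 and 0.272 CPM in naive hearts and at 15.8, 20.3 and 96.2 CPM after MI, with M40 well above the other MI hearts (log2 fold change 7.32, SE 1.65, edgeR adjusted p = 0.00476). Without M40 its log2 fold change was 6.03. Cdh3, which encodes P-cadherin, had 1 count in each naive heart and was at 6.51, 7.74 and 19.0 CPM after MI. Without M40 the log2 fold change of Cdh3 was 6.20, and without M38 that of C1qtnf3 was 7.69. That of P4ha3 was 9.90 without M44 and 8.0 without M45, and that of Chad was 6.80 and 10.63.

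Pdcd1, which encodes the inhibitory receptor PD-1 of activated T cells, entered the ranking through 1 heart. It had 0 counts in both naive hearts and was at 0.215, 27.6 and 2.46 CPM in M006, M38 and M40, at least 37.4-fold higher by the mean of the MI hearts (log2 fold change 10.48, SE 3.16, edgeR adjusted p = 0.0211). Its level in M006 was below the naive floor of 0.270 CPM, so only M38 and M40 stood clear of it. Without M38 the log2 fold change was 7.47 and still passed, and the call was lost when the 5 control libraries were fitted alone or when M44 or M45 was left out.

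Among the 12 largest falls were Chil3, Lingo3, Retnla, Scd4, Fbp2, Cabcoco1, Tuba4a, Efnb3, Mindy4b-ps, Gnb3 and Tnni3k. Chil3 (ENSMUSG00000040809, GRCm38 chromosome 3, 106147554-106167564), a chitinase-like protein of alternatively activated macrophages, fell the furthest. Its level was 579.9 and 601 CPM in naive hearts and 1.51, 2.87 and 16.9 CPM after MI, 82.6-fold lower by the fit (log2 fold change -6.37, SE 1.71, edgeR adjusted p = 0.011). Chil3 has close paralogs, so its counts are uncertain where reads fit more than 1 copy. Retnla, which encodes another secreted protein of alternatively activated macrophages, was at 466 and 249 CPM in naive hearts and at 21.7, 3.25 and 5.54 CPM after MI (log2 fold change -5.16, SE 0.84, edgeR adjusted p = 0.000973). Both genes were abundant in the naive control hearts and low in every control infarct. In the naive Vegfc-deficient hearts M149, M150 and M34, Chil3 varied widely, at 1679, 26.0 and 54.2 CPM. Retnla was at 353, 186 and 215 CPM there. The log2 fold change of Chil3 was -8.04 without M40 and that of Retnla -6.36 without M006.

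Other large falls were in muscle genes. Fbp2, the muscle form of fructose bisphosphatase, was at 38 and 31.7 CPM in naive hearts and at 1.99, 2.54 and 0.294 CPM after MI (log2 fold change -4.44, SE 0.88, edgeR adjusted p = 0.00253). Tuba4a, an alpha-tubulin of muscle and nerve, went from 748 and 1013 CPM to 50.4, 93.6 and 23.5 CPM, 15.8-fold lower. Tnni3k, a kinase found in cardiomyocytes, went from 141 and 137 CPM to 2.31, 21 and 4.33 CPM, 14.9-fold lower. M38 kept the most of all 3 transcripts among the MI hearts. Scd4, a stearoyl-CoA desaturase of heart, was at 22.4 and 8.25 CPM and at 0.646, 0.913 and 0.257 CPM. Without M38 the falls were larger, with log2 fold changes of -5.08 in Fbp2, -4.64 in Tuba4a and -5.42 in Tnni3k, and without M44 that of Scd4 was -3.75 in place of -4.64.

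**Figure D2:**
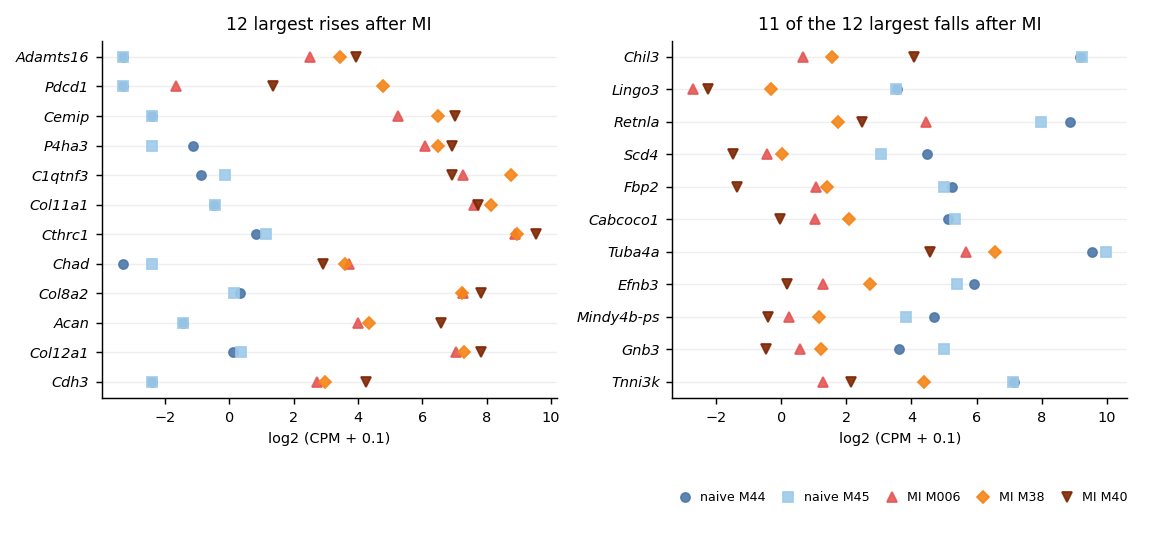
Level of the 12 autosomal genes with the largest rise (left) and 11 of the 12 with the largest fall (right), as log2 of CPM plus 0.1, with 1 point per control heart. The ranking took only genes in which the groups do not overlap, and Pdcd1 spreads most among the MI hearts, with M006 at a level below the naive floor of 3 counts.

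Collagens rose throughout. All 17 fibrillar and network collagens tested were higher after MI, with a median log2 fold change of 3.82 beside 0.13 for all genes. Col1a1, the main chain of scar collagen, was at 92.8 and 85.1 CPM in naive hearts and at 2027, 2518 and 3601 CPM after MI, a rise of 30.5-fold (log2 fold change 4.93, SE 0.49, edgeR adjusted p = 0.000157). Col3a1, its partner in young scar, reached 12498, 10127 and 14743 CPM from 892 and 875 CPM (log2 fold change 3.82, SE 0.41, edgeR adjusted p = 0.000197). Naive and MI hearts were far apart in both. The steepest rises were in minor collagens. Col11a1, which nucleates fibrils and is best known from cartilage, went from 0.624 and 0.634 CPM to 195, 282 and 214 CPM (log2 fold change 8.50, SE 1.20, edgeR adjusted p = 0.000497). Col12a1, which coats fibrils, went from 0.981 and 1.18 CPM to 133, 158 and 227 CPM, and Col8a2, a network collagen, from 1.16 and 0.997 CPM to 154, 149.8 and 226 CPM. The basement membrane chains Col4a1 and Col4a2 rose least, by 0.76 and 1.03 on the log2 scale.

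Genes of activated fibroblasts followed. All 18 were higher after MI (median log2 fold change 3.69). Tnc, which encodes tenascin C of healing wounds, went from 4.82 and 3.26 CPM to 173, 211 and 271 CPM (log2 fold change 5.75, SE 0.55, edgeR adjusted p = 0.00014). Comp, a matrix protein that binds collagen fibrils, went from 2.76 and 2.45 CPM to 281, 192 and 296 CPM (log2 fold change 6.62, SE 0.50, edgeR adjusted p = 9.02e-05). Acta2, the smooth muscle actin of myofibroblasts, was at 143 and 80.0 CPM in naive hearts and at 366, 640.2 and 1073 CPM after MI (log2 fold change 2.63, SE 0.66, edgeR adjusted p = 0.00795). The MI hearts differed more in Acta2 than in Tnc or Comp, and M40 had the most. Fap, the fibroblast activation protein, and Meox1, a transcription factor of activated fibroblasts, rose by 1.60 and 1.50 on the log2 scale, the smallest changes of the list.

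Enzymes that modify, crosslink and cut collagen were mostly higher, 15 of 22 tested, with 1 lower (2 without M40) and 6 that did not pass (median log2 fold change 1.75). Lox, the lysyl oxidase that crosslinks collagen and elastin, went from 8.29 and 12.8 CPM to 495, 665 and 841 CPM (log2 fold change 5.98, SE 0.60, edgeR adjusted p = 0.000159). Timp1, an X-linked inhibitor of matrix metalloproteases, went from 14.6 and 17.5 CPM to 155, 279.8 and 417 CPM (log2 fold change 4.14, SE 0.45, edgeR adjusted p = 0.0002). Timp4, the member of the same family that heart muscle makes, moved the other way, from 252 and 223 CPM to 30.0, 29.3 and 1.21 CPM (log2 fold change -3.56, SE 0.98, edgeR adjusted p = 0.0124). M40 had almost none of it. Mmp14, the membrane-bound collagenase, and Mmp2, the gelatinase it activates, rose by 3.33 and 1.67 on the log2 scale.

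Of 16 proteoglycan and elastic fibre genes, 15 were higher (median log2 fold change 2.12). Eln, which encodes elastin, went from 31.4 and 25.7 CPM to 1439, 618 and 2919 CPM (log2 fold change 5.86, SE 0.77, edgeR adjusted p = 0.000376), or 5.17 without M40. Fmod, the collagen-binding proteoglycan fibromodulin, went from 2.23 and 7.52 CPM to 296, 342 and 408 CPM (log2 fold change 6.16, SE 0.64, edgeR adjusted p = 0.000177), or 5.53 without M44 and 7.29 without M45. Dcn, which encodes decorin, was abundant in every heart, at 3412 and 3952 CPM in naive and 4618, 3396 and 3189 CPM in MI hearts, and did not pass the test (edgeR adjusted p = 0.958). In TGF-beta signalling, 10 of 16 genes were higher and none was lower (0 genes, or 1 without M006, median log2 fold change 0.86). Among the ligands, Tgfb3 went from 30.6 and 27.3 CPM to 234, 219 and 343 CPM (log2 fold change 3.20, SE 0.27, edgeR adjusted p = 0.00011). Inhba, which encodes a subunit of activin, rose by 3.23 and Tgfb2 by 1.60 on the log2 scale. Tgfb1 was at 45.8 and 38.7 CPM and 53.5, 70.9 and 65.3 CPM and did not pass (edgeR adjusted p = 0.0511). Of the receptors, Tgfbr1 rose by 2.48 and Tgfbr2 by 0.91 on the log2 scale.

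Bone and cartilage genes were higher in 7 of 8 tested and lower in 1. Their fitted median log2 fold change, 6.97, was the highest of the 49 lists but rests on members with few or no counts in naive hearts. The list includes Comp, Chad and Acan described above. Its median was 3.93 when the members with 0 counts in naive hearts were set to their lower bound. Against the naive mean the median member was 3.31, 3.12 and 3.22 log2 units up in M006, M38 and M40, below the 3.70, 3.52 and 4.06 of the collagens in each heart. Col2a1, the main collagen of cartilage, had 0 counts in naive hearts and was at 5.38, 7.03 and 15.2 CPM after MI, at least 34.1-fold higher. Col10a1, the collagen of hypertrophic cartilage, was also at 0 counts in naive hearts and at 1.61, 1.99 and 1.39 CPM after MI, at least 6.19-fold higher. The transcription factors Sox9 of cartilage and Runx2 of bone rose by 2.76 and 2.68 on the log2 scale. Sox9 was at 4.64 and 3.53 CPM in naive hearts and 37.6, 19.2 and 26.5 CPM after MI. Alpl, the phosphatase of mineralizing tissue, fell, from 44.2 and 27.7 CPM to 8.51, 13.5 and 5.47 CPM (log2 fold change -1.97, SE 0.40, edgeR adjusted p = 0.00294). In all of these genes the groups did not overlap. The terminal bone genes Ibsp and Bglap had 0 to 4 counts in every control heart and were not tested.

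**Figure D3:**
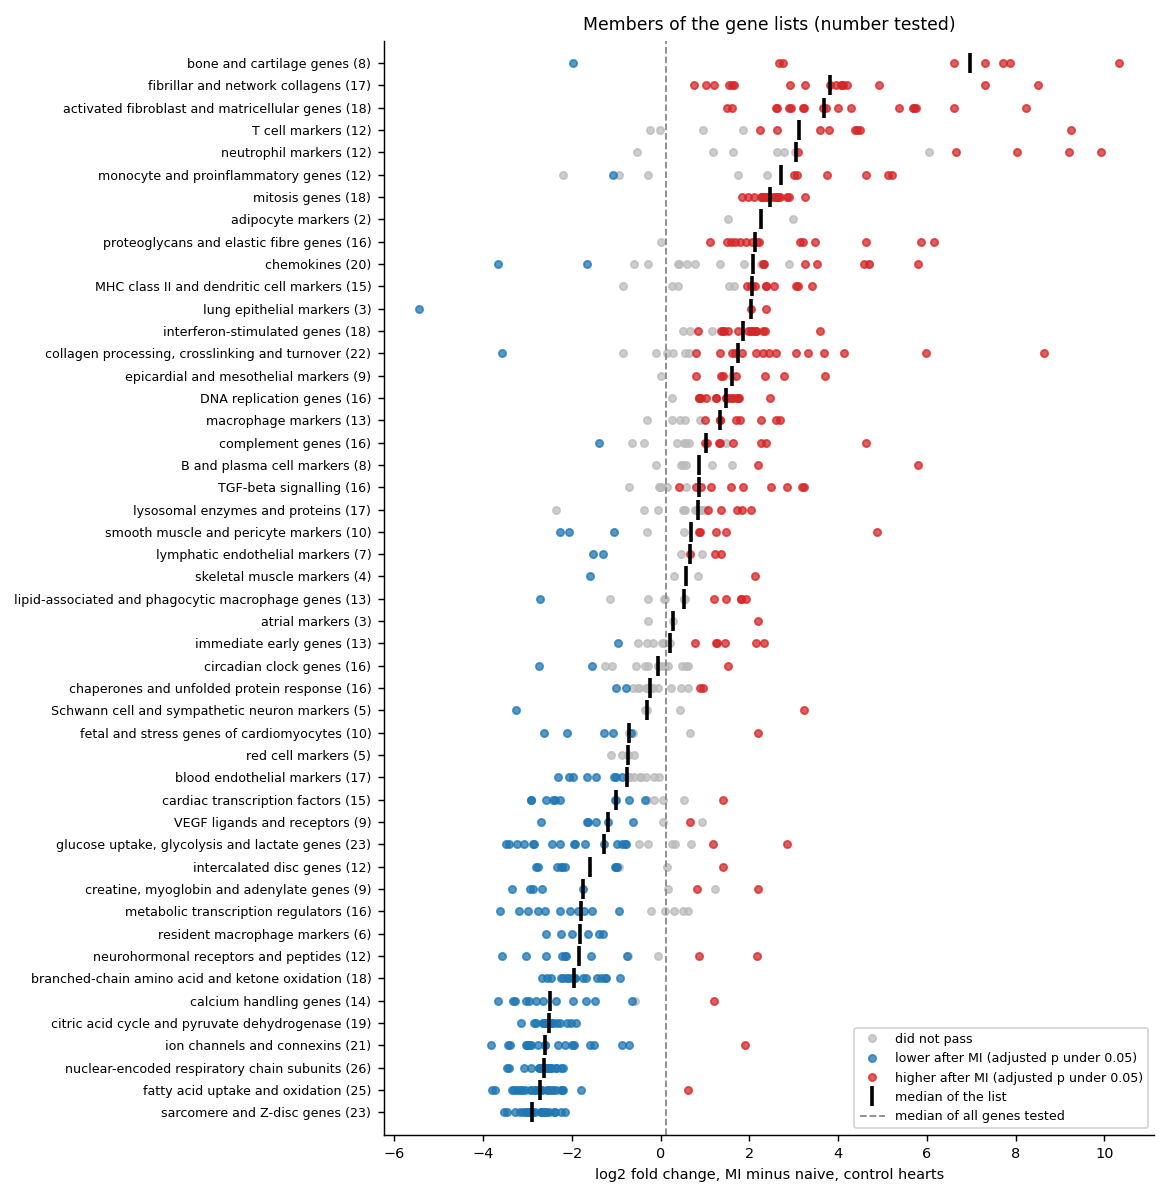
Fitted log2 fold change (MI minus naive, control hearts) of every tested member of the gene lists, 1 point per gene, coloured by the edgeR call, with the median of each list as a bar and that of all genes tested as a dashed line. The medians of matrix, cell division and, resident macrophage markers excepted, immune lists lie to the right of the dashed line, and those of contraction and energy metabolism lists lie to its left.

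Macrophage genes divided by kind. Of 13 general macrophage markers, 8 were higher after MI and none was lower (0 genes, median log2 fold change 1.34). Cx3cr1, the receptor for fractalkine, went from 8.56 and 13.3 CPM to 54.7, 72.7 and 84.1 CPM (log2 fold change 2.69, SE 0.37, edgeR adjusted p = 0.000446). Adgre1, which encodes F4/80, went from 84.3 and 93.7 CPM to 215, 434 and 277 CPM, and Fcgr1, a high-affinity Fc receptor, from 19.3 and 28.0 CPM to 84.2, 258 and 88.1 CPM. Each was highest in M38 or M40, with all MI hearts above the naive hearts. Without M38 the log2 fold change of Fcgr1 was 1.80 in place of 2.60. Cd68, a lysosomal protein of macrophages, was at 205 and 293 CPM in naive hearts and at 246, 304 and 471 CPM in MI hearts, and these groups overlapped. Lyz2, the lysozyme gene into which the LysMCre is inserted, was at 2121 and 2282 CPM and at 5380.2, 4573 and 4538 CPM. It was higher in every MI heart but did not pass in the fit that shares its spread with the Vegfc-deficient hearts (edgeR adjusted p = 0.595). With 1 control heart left out in turn, its log2 fold change was 1.05 to 1.19.

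Markers of the macrophages that reside in the heart before injury fell without exception among the 6 tested (median log2 fold change -1.81). Timd4, a receptor for phosphatidylserine on resident macrophages, went from 18.9 and 18.0 CPM to 4.74, 4.94 and 1.98 CPM (log2 fold change -2.25, SE 0.58, edgeR adjusted p = 0.00929). Folr2, a folate receptor of the same cells, went from 156 and 168 CPM to 66.6, 60.3 and 60.0 CPM (log2 fold change -1.38, SE 0.13, edgeR adjusted p = 0.000147). Lyve1, which both resident macrophages and lymphatic endothelium carry, went from 96.8 and 56.2 CPM to 49.8, 25.5 and 18.5 CPM (log2 fold change -1.29, SE 0.42, edgeR adjusted p = 0.0256), a call that was lost without M44, M38 or M40 (-0.85, -1.24 and -1.02). The log2 fold change was -2.59 in Cbr2, -2.00 in Cd163, the haemoglobin scavenger receptor, and -1.63 in F13a1, a clotting factor chain. Groups did not overlap in any of the 6, as in most genes tested.

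Of 13 genes of lipid-associated and phagocytic macrophages, 5 were higher, 1 was lower and 7 did not pass (median log2 fold change 0.54). Trem2, a lipid-sensing receptor, went from 65.5 and 94.7 CPM to 212, 243 and 456 CPM (log2 fold change 1.92, SE 0.72, edgeR adjusted p = 0.0458), and leaving out any of the 5 hearts lost this call, with log2 fold changes of 1.51 to 2.22. Abca1, the cholesterol exporter, rose by 1.81 and Gas6, a bridging molecule for the uptake of dead cells, by 1.20 on the log2 scale. Lpl, the lipoprotein lipase that cardiomyocytes also make, was lower, with a log2 fold change of -2.72. Gpnmb, a glycoprotein of lipid-laden macrophages, was already high in naive hearts, at 931 and 1325 CPM, and was at 239, 324 and 985 CPM after MI, with overlapping groups (edgeR adjusted p = 0.521). Among 17 lysosomal genes, 5 were higher and none was lower (0 genes, median log2 fold change 0.85). The share called higher was near the 26.3% of all genes tested. Ctsk, the collagen-degrading cathepsin K, went from 53.0 and 36.1 CPM to 114, 105 and 261 CPM (log2 fold change 1.84, SE 0.56, edgeR adjusted p = 0.0189). The call of Ctsk was lost without M40 (1.29), without M44 (2.15) and without M45 (1.595). Without naive M44 the macrophage, lipid-associated and lysosomal lists had 3, 2 and 1 members called higher, and without naive M45 they had 3, 3 and 2. Without the library labelled naive Vegfc-deficient M149, 9 lysosomal genes were called higher and 1 lower.

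Monocyte and proinflammatory genes were higher in 6 of 12 tested and lower in 1 (median log2 fold change 2.71). Ccr2, the receptor that brings monocytes out of the bone marrow, went from 4.28 and 4.89 CPM to 64.0, 199.9 and 74.5 CPM (log2 fold change 4.62, SE 0.58, edgeR adjusted p = 0.000326). Plac8 of monocytes went from 2.41 and 4.17 CPM to 57.8, 204 and 106 CPM, and Il6, a cytokine also made by fibroblasts, from 0.0892 and 0.272 CPM to 7.75, 5.07 and 6.82 CPM. All MI hearts were above the naive hearts in these genes. Without M38, Ccr2 and Plac8 still passed, with log2 fold changes of 3.85 and 4.58, and without M45 that of Il6 was 6.09 in place of 5.13. Nos2, the inducible nitric oxide synthase, was lower, at 8.38 and 11.2 CPM in naive hearts and 5.38, 5.85 and 2.68 CPM after MI (log2 fold change -1.08, SE 0.37, edgeR adjusted p = 0.0319), and without M44, M45 or M40 this call was lost. Tnf was at 1.78 and 1.72 CPM and 1.99, 11.8 and 3.63 CPM and Arg1, the arginase of alternatively activated macrophages, at 60.2 and 69.0 CPM and 4.47, 31.2 and 65.7 CPM, and neither passed.

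Chemokine genes were higher in 7 of 20 and lower in 2 (median log2 fold change 2.08, and 0.845 without MI M38 and 1.35 without MI M40). Of all genes tested, 26.3% were called higher and 24.1% lower. Cxcl16, a scavenger receptor and chemokine, went from 72.8 and 69.2 CPM to 239.9, 496 and 333 CPM (log2 fold change 2.33, SE 0.44, edgeR adjusted p = 0.00185). Cxcl10, an interferon-induced ligand for T cells, was at 0.892 and 0.181 CPM in naive hearts and at 3.45, 81.9 and 5.98 CPM after MI (log2 fold change 5.81, SE 1.61, edgeR adjusted p = 0.0126), or 3.06 without M38, 7.34 without M44 and 5.09 without M45. Cxcl9, of the same group, was at 7.67 and 8.06 CPM and at 8.18, 603 and 4.26 CPM, so M38 alone was above the naive hearts by a large margin and the groups overlapped. Ccl11, the eosinophil chemokine eotaxin, fell from 25.6 and 54.9 CPM to 5.17, 1.89 and 2.60 CPM (log2 fold change -3.67, SE 0.45, edgeR adjusted p = 0.00029), or -3.005 without M45. Without M44 or M45, 4 chemokines were called higher, and 1 or 2 lower.

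Neutrophil markers were higher in 5 of 12 (median log2 fold change 3.06, or 2.91 with 3 members that had 0 counts in naive hearts at their lower bound). M40 was the heart with the most of these transcripts. S100a8, a calcium-binding protein that fills the neutrophil cytosol, was at 4.91 and 6.89 CPM in naive hearts and at 8.67, 11 and 124 CPM after MI, and it did not pass (edgeR adjusted p = 0.0791). Mpo, the myeloperoxidase made by granulocyte precursors, had 0 counts in naive hearts and was at 0.431, 1.69 and 18.5 CPM after MI, at least 25.5-fold higher by the mean (log2 fold change 9.93, SE 2.76, edgeR adjusted p = 0.0147). Most of this mean came from M40, and without M38 or M40 Mpo had too few counts to be tested. Without M40 the median was 1.21 and 1 member was called higher, without M38 3 were, and without M44 or M45 there were 1 and 2.

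Antigen presentation, T cell and interferon genes rose together in M38. MHC class II and dendritic cell genes were higher in 10 of 15 (median log2 fold change 2.07), T cell markers in 8 of 12 (3.11) and interferon-stimulated genes in 15 of 18 (1.86), and none of these lists had a member called lower (0 genes). When the 5 control libraries were fitted alone, 4 class II, 5 T cell and 9 interferon genes were called higher. Taking each heart against the naive mean, the median member of the class II list was 0.914, 3.02 and 0.659 log2 units up in M006, M38 and M40. In the T cell list it was 1.35, 3.57 and 1.01 log2 units up, and in the interferon list 1.0, 2.77 and 0.743. All 3 MI hearts were thus above the naive mean in each list, and M38 was the highest in each.

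H2-Ab1, a class II chain, was at 137 and 196 CPM in naive hearts and at 333, 1987 and 265 CPM after MI (log2 fold change 2.37, SE 0.80, edgeR adjusted p = 0.0299). Ciita, the activator of class II transcription, went from 3.03 and 4.35 CPM to 14.4, 69.6 and 10.3 CPM. Cd3g, a chain of the T cell receptor complex, was at 1.69 and 1.72 CPM and at 10.7, 47.6 and 3.52 CPM (log2 fold change 3.59, SE 0.97, edgeR adjusted p = 0.0114). In each gene the groups did not overlap but M38 was several times above the other MI hearts. Mx1, an antiviral GTPase, went from 1.34 and 1.72 CPM to 10.7, 31.2 and 13.4 CPM (log2 fold change 3.59, SE 0.60, edgeR adjusted p = 0.00106), with M006 and M40 also clearly above the naive hearts. Without M38, 5 class II, 8 T cell and 10 interferon genes were called higher, with medians of 0.780, 1.81 and 0.795. The call of H2-Ab1 was then lost, with a log2 fold change of 0.78, and those of Ciita, Cd3g and Mx1 became 1.68, 1.97 and 2.91 and still passed. Without M44 the lists had 4, 2 and 3 members called higher, and the same numbers without M45.

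**Figure D4:**
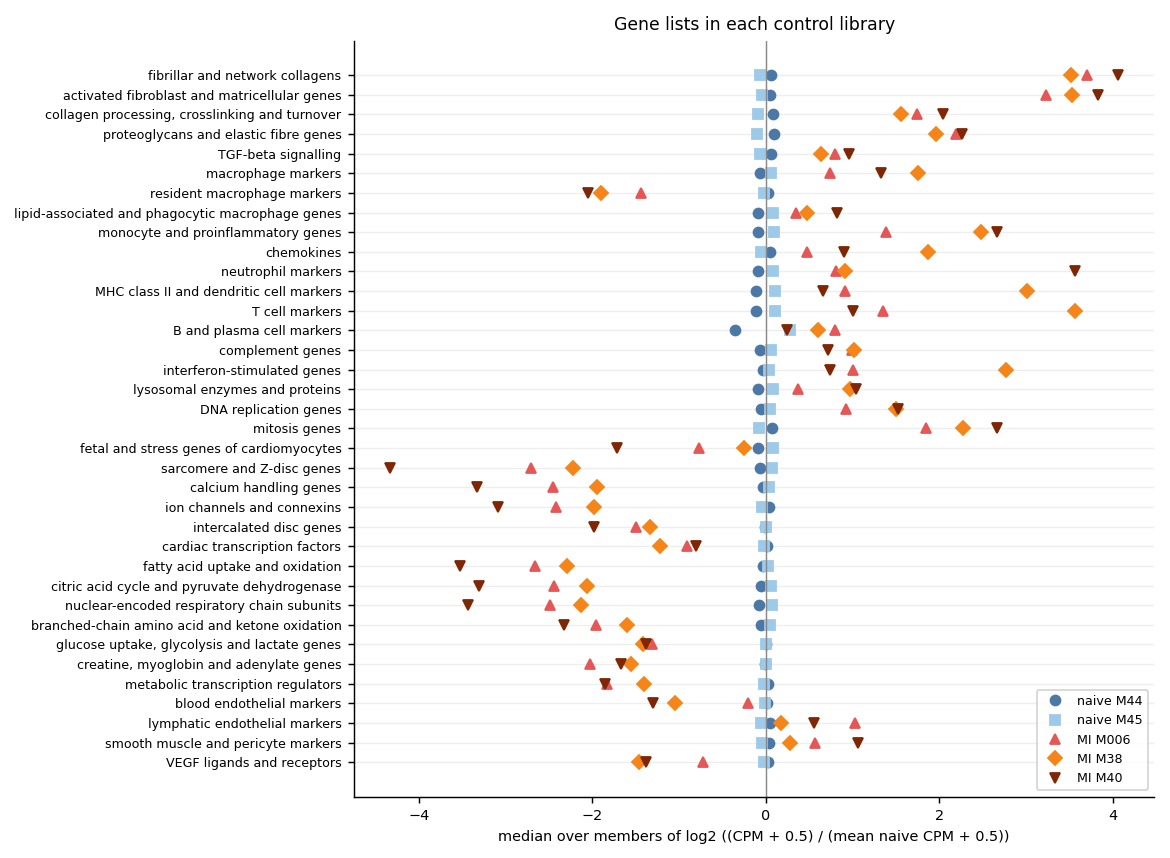
Median over the tested members of each gene list of log2 of CPM plus 0.5 over the naive mean plus 0.5, with 1 point per control heart. M38 stands apart in the class II, T cell and interferon lists, M40 in the neutrophil list and lowest in the sarcomere list, and all 3 MI hearts lie close together in the collagen list.

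Among B and plasma cell markers 2 of 8 were higher and 6 did not pass. That share was near the 26.3% of all genes called higher. Jchain, which joins secreted antibodies into polymers, went from 0.446 and 2.08 CPM to 64.2, 61.1 and 88.4 CPM (log2 fold change 5.81, SE 0.76, edgeR adjusted p = 0.000376). Its log2 fold change was 5.09 without M44 and 7.30 without M45. Without M44 or M40, 1 B and plasma cell marker was called higher. Complement genes were higher in 8 of 16 and lower in 1 (median log2 fold change 1.02). C3, the component on which the pathways meet, went from 314 and 346 CPM to 623, 836 and 516 CPM (log2 fold change 1.0, SE 0.28, edgeR adjusted p = 0.0129). Without M38 the call of C3 was lost (0.73). Cd59a, an inhibitor of the membrane attack complex, fell from 135 and 144 CPM to 64.0, 54.4 and 41.5 CPM (log2 fold change -1.39, SE 0.21, edgeR adjusted p = 0.000688). Without M44 or M45, 5 complement genes were called higher.

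Cell division genes rose as a block. All 18 mitosis genes were higher (median log2 fold change 2.46, range 1.83 to 3.25), and so were 15 of 16 DNA replication genes (median 1.48). Mki67, the proliferation marker Ki-67, went from 15.7 and 15.9 CPM to 64.9, 77.7 and 101 CPM (log2 fold change 2.36, SE 0.38, edgeR adjusted p = 0.000869). Plk1, a mitotic kinase, had the largest rise of the list, from 0.981 and 0.906 CPM to 6.19, 8.99 and 11.9 CPM (log2 fold change 3.25, SE 0.54, edgeR adjusted p = 0.00104). Every MI heart was above both naive hearts in these genes, and M40 was the highest. Rrm2, the subunit of ribonucleotide reductase that is made in S phase, went from 4.64 and 3.99 CPM to 17.6, 26.9 and 27.4 CPM (log2 fold change 2.47, SE 0.35, edgeR adjusted p = 0.000517). Pcna, the sliding clamp, was at 41.7 and 52.4 CPM and 46.2, 66.5 and 56.4 CPM and was the member that did not pass.

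Because these genes moved together, their promoters were searched for the short elements known from cell cycle control. Promoters of 300 bases (250 before and 50 after the start, RefSeq, GRCm38.p6) were matched to 11585 of the 14779 genes tested, and any of a gene's starts could count. The letters TTTGAA, the core of the cell cycle homology region, were found on either strand in 9 of 14 mitosis genes with a promoter (64.3%). They were found in 14.6% of all tested genes with a promoter, in 16.3% of those called higher and in 14.1% of those called lower. The letters TTCCCGC of the E2F site were found in 5 of 13 DNA replication genes (38.5%), and in 9.40% of all genes. The E2F letters were found in 0 of the 14 mitosis genes, and TTTGAA in 1 of the 13 DNA replication genes. A match is a description of the letters and not a measured site. The 180 bases before the start of Cdk1 (the mitotic kinase, chr10:69352913-69353092, minus strand), Cdc20 (chr4:118437344-118437523, minus strand), Mki67 (chr7:135716380-135716559, minus strand) and Top2a (topoisomerase II alpha, chr11:99024190-99024369, minus strand) are shown as mitosis promoters with TTTGAA or its complement in capitals. Those of Cdc6 (a licensing factor of replication origins, chr11:98907971-98908150, plus strand) and Rrm1 (a subunit of ribonucleotide reductase, chr7:102441515-102441694, plus strand) are shown with the E2F letters or their complement in capitals.
Cdk1: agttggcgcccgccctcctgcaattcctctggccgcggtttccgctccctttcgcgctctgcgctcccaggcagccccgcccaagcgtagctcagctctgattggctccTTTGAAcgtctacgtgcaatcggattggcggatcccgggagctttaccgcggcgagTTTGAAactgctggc
Cdc20: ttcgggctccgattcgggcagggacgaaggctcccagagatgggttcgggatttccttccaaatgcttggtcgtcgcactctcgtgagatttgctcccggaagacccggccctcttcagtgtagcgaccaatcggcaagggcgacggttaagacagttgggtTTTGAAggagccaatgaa
Mki67: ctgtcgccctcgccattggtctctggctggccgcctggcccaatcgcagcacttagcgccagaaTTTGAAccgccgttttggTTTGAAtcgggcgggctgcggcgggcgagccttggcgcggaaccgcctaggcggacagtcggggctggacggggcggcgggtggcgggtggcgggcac
Top2a: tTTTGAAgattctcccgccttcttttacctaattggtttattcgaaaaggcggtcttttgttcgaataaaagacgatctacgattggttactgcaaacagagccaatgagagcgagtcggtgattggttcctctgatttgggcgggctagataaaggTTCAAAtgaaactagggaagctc
Cdc6: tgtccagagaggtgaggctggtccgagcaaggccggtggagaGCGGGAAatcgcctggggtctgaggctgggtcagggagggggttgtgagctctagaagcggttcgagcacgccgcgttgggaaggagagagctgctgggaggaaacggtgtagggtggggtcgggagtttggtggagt
Rrm1: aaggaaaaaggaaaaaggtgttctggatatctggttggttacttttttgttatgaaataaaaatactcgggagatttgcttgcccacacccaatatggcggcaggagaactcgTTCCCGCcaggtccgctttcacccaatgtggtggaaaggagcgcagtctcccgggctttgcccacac

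In Cdk1 the element began at -71 and -15 from the start, in Cdc20 at -18, in Mki67 at -116 and -98 and in Top2a at -179 and -23. In Cdc6 the E2F letters began at -138 and in Rrm1 at -67. Cdk1 was at 11.6 and 9.51 CPM in naive hearts and at 47.0, 58.6 and 75.8 CPM after MI (log2 fold change 2.52, SE 0.37, edgeR adjusted p = 0.000591). Top2a went from 12.4 and 8.61 CPM to 45.1, 65.1 and 82.4 CPM and Cdc20, an activator of the anaphase-promoting complex, from 5.35 and 3.72 CPM to 12.2, 15.0 and 21.2 CPM. Rrm1 rose less, from 34.3 and 27.3 CPM to 59.9, 66.1 and 95.1 CPM (log2 fold change 1.26, SE 0.25, edgeR adjusted p = 0.00237), and Cdc6 was low in all hearts, at 2.23 and 2.08 CPM and 4.74, 5.95 and 4.81 CPM (log2 fold change 1.26, SE 0.31, edgeR adjusted p = 0.00709). The groups did not overlap in any of them.

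On the falling side, every sarcomere and Z-disc gene tested was lower after MI, 23 of 23, with a median log2 fold change of -2.90. Myh6, the main myosin motor of the adult mouse ventricle, was at 5162 and 5305 CPM in naive hearts and at 535, 949 and 139 CPM after MI, 9.67-fold lower (log2 fold change -3.27, SE 0.77, edgeR adjusted p = 0.00583). Tnni3, cardiac troponin I, went from 10406 and 11542 CPM to 1149.8, 1484 and 204 CPM, and Ttn, which encodes titin, from 1379.8 and 1465 CPM to 275, 319 and 87.8 CPM. M38 kept the most of Myh6 and M40 the least of all these transcripts. Against the naive mean, the median sarcomere gene stood at -2.71, -2.22 and -4.33 log2 units in M006, M38 and M40. Without M40 all 23 were still called lower, with a median of -2.45. Without M38 the log2 fold change of Myh6 was -4.02.

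Calcium handling genes were lower in 12 of 14 (median log2 fold change -2.50). Atp2a2, the pump SERCA2 that refills the calcium store, was at 7089 and 6679 CPM in naive hearts and at 707, 1108 and 243 CPM after MI (log2 fold change -3.33, SE 0.65, edgeR adjusted p = 0.00227). Pln, its inhibitor phospholamban, went from 7105 and 7639 CPM to 817, 1273 and 187 CPM, and Ryr2, the release channel, from 625 and 631 CPM to 91.7, 116 and 24.5 CPM. The pump, its inhibitor and the channel had log2 fold changes of -3.33, -3.28 and -3.02, and without M38 the first 2 were -3.92 and -3.94. Fkbp1b, which binds the release channel, was the one member that rose, from 4.19 and 6.34 CPM to 10.4, 12.4 and 13.5 CPM (log2 fold change 1.20, SE 0.24, edgeR adjusted p = 0.00287).

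Among ion channels and connexins, 19 of 21 were lower and 1 was higher (median log2 fold change -2.61). Kcnj3, a subunit of the acetylcholine-gated potassium channel, went from 49.9 and 58.2 CPM to 4.90, 9.87 and 0.624 CPM (log2 fold change -3.39, SE 0.82, edgeR adjusted p = 0.00657). Gja1, connexin 43 of the ventricular gap junction, went from 249 and 265 CPM to 77.8, 108 and 70.5 CPM (log2 fold change -1.59, SE 0.42, edgeR adjusted p = 0.00986). Gja5, connexin 40 of arteries, atria and conduction fibres, rose from 10.3 and 10.4 CPM to 36.6, 35.4 and 43.8 CPM (log2 fold change 1.89, SE 0.40, edgeR adjusted p = 0.00331), and the groups did not overlap. Intercalated disc genes were lower in 9 of 12 and higher in 1 (median -1.58). Pkp2, the desmosomal plakophilin, went from 212 and 214 CPM to 48.4, 69.2 and 19.1 CPM, whereas Vcl, the adhesion protein vinculin that fibroblasts also make, rose from 11.1 and 9.06 CPM to 21, 20.4 and 38.2 CPM (log2 fold change 1.40, SE 0.32, edgeR adjusted p = 0.00516). Without M45 the call of Vcl was lost. Without M38 the log2 fold change of Kcnj3 was -4.42.

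Cardiac transcription factors were lower in 10 of 15 and higher in 1, or in 2 without M38 (median log2 fold change -1.01). Nkx2-5, a core factor of cardiomyocyte identity, went from 56.0 and 47.1 CPM to 4.95, 11.8 and 3.63 CPM (log2 fold change -2.91, SE 0.50, edgeR adjusted p = 0.00124), or -3.66 without M38. Gata4, which cardiac fibroblasts also express, fell less, from 78.8 and 60.7 CPM to 37.6, 29.7 and 35 CPM (log2 fold change -1.03, SE 0.21, edgeR adjusted p = 0.00303). Tbx20 rose, from 74.6 and 55.9 CPM to 192, 142 and 188 CPM (log2 fold change 1.41, SE 0.23, edgeR adjusted p = 0.00097). The groups did not overlap in any of these.

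Fetal and stress genes of cardiomyocytes moved in different directions. Nppa, the atrial natriuretic peptide gene that stressed ventricle re-expresses, was the member of the 10 that rose, from 416 and 466 CPM to 1406, 3283 and 1423 CPM (log2 fold change 2.21, SE 0.67, edgeR adjusted p = 0.0199), and M38 had the most. It lies on GRCm38 chromosome 4, 148000722-148002079. Nppb, its neighbour that encodes B-type natriuretic peptide, fell, from 579 and 684 CPM to 296, 397 and 209.8 CPM (log2 fold change -1.07, SE 0.35, edgeR adjusted p = 0.0282). The groups did not overlap in either gene. Myh7, the fetal myosin motor, was at 294 and 311 CPM in naive hearts and at 200.4, 294 and 62.3 CPM after MI, with overlapping groups (edgeR adjusted p = 0.382). In all 5 members of the list were lower, 4 did not pass, and the median log2 fold change was -0.70. The calls were few and depended on single hearts. With M44, M45, M006 or M40 left out, the members called lower were 1, 2, 2 and 2, and without M44, M45 or M38 the call of Nppa was lost (1.62 without M38). That of Nppb was lost without any 1 of M44, M45, M006 and M40.

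Energy metabolism fell with the contractile genes. Of 25 genes of fatty acid uptake and oxidation, 24 were lower (median log2 fold change -2.72). Cd36, the fatty acid transporter of muscle and endothelium, was at 2718 and 2659 CPM in naive hearts and at 543, 657 and 263 CPM after MI (log2 fold change -2.46, SE 0.40, edgeR adjusted p = 0.000999). Acadm, the medium-chain dehydrogenase, went from 1509.7 and 1642 CPM to 159.6, 223 and 79.4 CPM, and Cpt1b, the muscle form of the carnitine palmitoyltransferase that admits fatty acids to mitochondria, from 543 and 546 CPM to 58.2, 101 and 15.1 CPM. The log2 fold change of Cpt1b was -3.23, or -3.96 without M38. Cpt1a, the form of other tissues, moved the opposite way, from 62.7 and 69.1 CPM to 99.3, 97.8 and 109 CPM (log2 fold change 0.63, SE 0.14, edgeR adjusted p = 0.00448), a call that was lost without M44. The letters AAGGTCA, an element bound by several nuclear receptors of metabolism, stood in 1 of 23 genes of this list with a promoter (4.35%). They stood in 4.14% of all tested genes with a promoter and in 5.29% of those called lower.

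All 19 genes of the citric acid cycle and pyruvate dehydrogenase were lower (median -2.51), as were all 26 nuclear-encoded subunits of the respiratory chain (median -2.62) and all 18 genes of branched-chain amino acid and ketone oxidation (median -1.95). Idh2, an isocitrate dehydrogenase, went from 1933 and 2297 CPM to 270.3, 307 and 141 CPM (log2 fold change -3.14, SE 0.42, edgeR adjusted p = 0.000389). Cox7a1, the muscle form of a cytochrome c oxidase subunit, went from 2488 and 2967 CPM to 345, 356 and 43.6 CPM (log2 fold change -3.46, SE 0.78, edgeR adjusted p = 0.00473). Cox4i1, a subunit found in most tissues, fell less, from 3479.9 and 3774 CPM to 829, 1062 and 491 CPM (log2 fold change -2.19, SE 0.38, edgeR adjusted p = 0.00134). No list here had overlapping groups among the genes named, and M40 was the lowest heart in each of them. Log2 fold changes were -2.24 for Bckdhb, a subunit of the branched-chain dehydrogenase complex, and -2.67 for Bdh1, of ketone body use (-3.36 without M38). No read was counted on the 13 mitochondrially encoded genes, so no statement is made on them.

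Genes of glucose uptake, glycolysis and lactate were mostly lower. Of 23 tested, 16 were lower, 2 higher and 5 did not pass (median log2 fold change -1.28). Slc2a4, the insulin-responsive transporter GLUT4, went from 281 and 289 CPM to 37.5, 54.9 and 9.21 CPM (log2 fold change -3.07, SE 0.68, edgeR adjusted p = 0.00436), or -3.68 without M38. Ldhb, the heart form of lactate dehydrogenase, went from 1618 and 1733 CPM to 193, 204 and 52.1 CPM (log2 fold change -3.48, SE 0.60, edgeR adjusted p = 0.00121), while Ldha, the form of most other tissues, fell less, from 859 and 841 CPM to 367, 537 and 398 CPM (log2 fold change -0.97, SE 0.22, edgeR adjusted p = 0.00485). Slc16a3, the lactate exporter MCT4, rose from 6.07 and 4.35 CPM to 22.9, 37.9 and 51.5 CPM (log2 fold change 2.85, SE 0.46, edgeR adjusted p = 0.000912), and Pfkfb3, an activator of glycolysis, from 19.9 and 20.1 CPM to 31.5, 60.4 and 45.3 CPM (log2 fold change 1.19, SE 0.25, edgeR adjusted p = 0.00335). In the creatine and adenylate list 5 of 9 were lower and 2 higher (median -1.74). Ckm, the muscle creatine kinase, went from 1911 and 1787 CPM to 252, 469.6 and 36.8 CPM, and Gatm, which makes the precursor of creatine, rose from 20.4 and 14.4 CPM to 107, 59.9 and 71.5 CPM (log2 fold change 2.19, SE 0.38, edgeR adjusted p = 0.00129). Ckb, the brain form of the kinase, rose by 0.81 on the log2 scale. With M44, M45, M38 or M40 left out in turn, 1 of these 2 was called higher. The call of Ckm (log2 fold change -2.87) was lost without M006, and without M38 its log2 fold change was -3.75.

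Regulators of these programmes fell too, 11 of 16 lower and none higher (0 genes, or 1 without M006, median -1.79). Ppargc1a, the coactivator of mitochondrial genes, was at 30.2 and 40.8 CPM in naive hearts and at 5.06, 8.62 and 1.87 CPM after MI (log2 fold change -2.77, SE 0.57, edgeR adjusted p = 0.00307). Esrra, a nuclear receptor that works with it, went from 101 and 97.5 CPM to 21.9, 43.4 and 25.3 CPM (log2 fold change -1.71, SE 0.27, edgeR adjusted p = 0.000859), and Rxrg, a retinoid X receptor, from 124 and 129 CPM to 10.4, 18.0 and 2.31 CPM (log2 fold change -3.62, SE 0.70, edgeR adjusted p = 0.00226). The groups did not overlap, and Rxrg in M40 was far below the other hearts. Without M38 the log2 fold changes of Ppargc1a and Rxrg were -3.45 and -4.40.

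Blood vessels were described by 17 endothelial markers, of which 8 were lower and none higher (0 genes, median log2 fold change -0.75). The members that fell furthest were those of capillary lipid and water transport. Gpihbp1, which holds lipoprotein lipase on capillary walls, went from 448 and 449.7 CPM to 149.5, 90.1 and 32.5 CPM (log2 fold change -2.31, SE 0.52, edgeR adjusted p = 0.00482), and Aqp1, a water channel, from 862 and 977 CPM to 321, 256 and 124 CPM (log2 fold change -1.98, SE 0.40, edgeR adjusted p = 0.00279). Pecam1, the pan-endothelial adhesion molecule CD31, was at 288 and 269 CPM in naive hearts and at 269, 154 and 133 CPM after MI and did not pass (edgeR adjusted p = 0.091). M006 lay close to the naive hearts in Pecam1, and without M006 14 of the 17 markers were called lower.

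Of 9 VEGF ligands and receptors, 6 were lower and 1 was higher (median log2 fold change -1.18). Vegfb, the ligand that muscle makes in quantity, went from 426 and 483 CPM to 76.2, 92.0 and 41.3 CPM (log2 fold change -2.70, SE 0.34, edgeR adjusted p = 0.000332). Vegfa, the main angiogenic ligand, went from 141 and 113 CPM to 44, 39.1 and 39.1 CPM (log2 fold change -1.64, SE 0.20, edgeR adjusted p = 0.000294), and its receptor Kdr from 215 and 219 CPM to 109, 56.4 and 39.8 CPM. Nrp2, a coreceptor of VEGF-C on lymphatic vessels, was the member that rose, by 0.67 on the log2 scale (log2 fold change 0.67, SE 0.21, edgeR adjusted p = 0.0225). This call was lost without M44, M45 or M006. Flt4, the VEGF-C receptor VEGFR3, was at 16.0 and 12.3 CPM in naive hearts and at 44, 16.0 and 21 CPM after MI and did not pass (edgeR adjusted p = 0.0908).

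Lymphatic markers did not move as one. Of 7 tested, 3 were higher and 2 lower (median log2 fold change 0.67), and their summed level was 275.3 and 238.2 CPM in naive hearts and 407.9, 232.4 and 299.1 CPM after MI, so the groups overlapped. Prox1, the factor that sets lymphatic identity and that cardiomyocytes also express, fell from 36.1 and 44.5 CPM to 24.3, 10.3 and 7.81 CPM (log2 fold change -1.52, SE 0.47, edgeR adjusted p = 0.0215). Pdpn, podoplanin, which fibroblasts of scars also carry, rose from 33.3 and 30.5 CPM to 65.5, 52.7 and 106 CPM (log2 fold change 1.23, SE 0.34, edgeR adjusted p = 0.0123). Mmrn1, of lymphatic vessels and platelets, was at 16.3 and 22.0 CPM and at 90.5, 25.3 and 32.0 CPM (log2 fold change 1.36, SE 0.52, edgeR adjusted p = 0.0498), highest in M006. Without M44 no lymphatic marker was called (0 genes), without M45 0 were higher and 1 lower, without M006 1 was called higher, and without M38 or M40 none was called lower (0 genes). The log2 fold change of Mmrn1 was 0.58 without M006 and that of Prox1 was -2.15 without M006, -1.40 without M38 and -1.22 without M40.

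Mural cell genes changed in both directions. Of 10 tested, 5 were higher and 3 lower (median log2 fold change 0.69). The 3 lower calls were Abcc9, Kcnj8 and Rgs5, and the list members Pdgfrb, Cspg4 and Notch3 were not called lower. Abcc9 and Kcnj8, a channel pair listed here as pericyte markers, had log2 fold changes of -2.26 and -2.05. Rgs5, listed with them, went from 1436 and 1299 CPM to 929, 639.8 and 412 CPM (log2 fold change -1.05, SE 0.32, edgeR adjusted p = 0.0193). Which cells of the tissue carried these falls was not tested. Cnn1, calponin of contractile smooth muscle and myofibroblasts, rose from 1.25 and 1.81 CPM to 16.3, 38.1 and 80.3 CPM (log2 fold change 4.87, SE 0.84, edgeR adjusted p = 0.00126), and Myh11, smooth muscle myosin, from 21.3 and 14.9 CPM to 41.3, 35.1 and 74.4 CPM (log2 fold change 1.47, SE 0.30, edgeR adjusted p = 0.00297). M40 had the most Cnn1 and Myh11 and the least Rgs5. Without M44 or M45, 3 and 2 members were called higher. Without M40 the log2 fold change of Cnn1 was 4.15.

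Of 9 epicardial and mesothelial markers, 7 were higher and none lower (0 genes, median log2 fold change 1.61). Their summed level was 104.4 and 118.8 CPM in naive hearts and 267.1, 198.2 and 456.0 CPM after MI. Msln, mesothelin of the surface layer, went from 3.03 and 5.62 CPM to 11.9, 19.0 and 35.1 CPM (log2 fold change 2.35, SE 0.77, edgeR adjusted p = 0.027). Tcf21, which also marks fibroblasts, went from 53.4 and 54.9 CPM to 155, 78.8 and 198 CPM (log2 fold change 1.41, SE 0.40, edgeR adjusted p = 0.015). Without M44, M45 or M40 the members called higher were 2, 3 and 4. Msln was among the calls lost without M40 (1.84), without M44 (1.97) and without M45 (2.86).

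Genes of the hormonal control of the heart were lower in 8 of 12 and higher in 2 (median log2 fold change -1.85). Adrb1, the beta-1 adrenergic receptor, went from 11.8 and 10.1 CPM to 2.21, 3.65 and 1.14 CPM (log2 fold change -2.22, SE 0.67, edgeR adjusted p = 0.0184). Agtr1a, the angiotensin receptor, went from 41.3 and 48.0 CPM to 9.26, 9.30 and 3.74 CPM (log2 fold change -2.59, SE 0.45, edgeR adjusted p = 0.00127), and Adra1b, an alpha-1 adrenergic receptor, from 23.6 and 14.3 CPM to 1.40, 2.87 and 0.44 CPM. Edn1, the vasoconstrictor endothelin 1, rose from 4.46 and 3.62 CPM to 20.9, 16.3 and 17.5 CPM (log2 fold change 2.17, SE 0.23, edgeR adjusted p = 0.00018), and its receptor Ednra by 0.87 on the log2 scale. Without M44 or M45, 1 member was called higher, and without M45 5 were called lower. The call of Adrb1 was lost without M006 (-2.18) and without M40 (-1.89), and without M38 the log2 fold change of Adra1b was -4.49 in place of -3.57.

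Markers of tissues and blood that a dissected ventricle could carry were also counted. Of 10 lung epithelial markers, 3 had enough counts to test, and 2 were higher and 1 lower. Their sum was 5.17 and 5.89 CPM in naive hearts and 15.2 to 35.8 CPM after MI. The member called lower fell steeply (log2 fold change -5.44), a fall that the rising sum hides. The surfactant genes Sftpa1 and Sftpc had 0 counts in every control heart. Without M44 or M45 none of the 3 was called higher (0 genes). Their part in the results was not tested. Of 9 skeletal muscle markers 4 were tested, with sums of 8.97 to 11.8 CPM in naive and 10.4 to 12.9 CPM in MI hearts. Of 3 atrial markers tested Nppa alone passed, and the atrial genes Sln and Bmp10 had 0 to 3 counts in every control heart. None of 5 red cell genes passed (0 genes), and their sums of 1072 and 2392 CPM in naive and 788.5 to 1354 CPM in MI hearts overlapped.

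The Vegfc-deficient mice gave another MI against naive contrast from other animals. The Y-linked genes and Xist separated MI from naive hearts there too, with a median log2 fold change of -7.70 beside -9.11 in control mice, so the same limit holds for both contrasts. In a test of the interaction of MI with genotype (edgeR, Benjamini-Hochberg), 0 of 14779 genes passed, and 1226 had an unadjusted p under 0.05. In the Vegfc-deficient mice the median log2 fold change was 3.64 in collagens, -2.18 in sarcomere genes, -2.71 in the respiratory chain and 2.31 in mitosis genes, beside 3.82, -2.90, -2.62 and 2.46 in control mice. It was 0.84 in class II genes, 0.79 in T cell markers and 0.60 in interferon-stimulated genes, beside 2.07, 3.11 and 1.86 in control mice, the lists in which M38 stood apart. In neutrophil markers it was 1.17 beside 3.06, the list in which M40 stood apart. In bone and cartilage genes it was 4.38 beside 6.97. The differences between these medians were not tested. Each of the 12 largest rises, which were ranked on the control hearts, was smaller in the Vegfc-deficient mice. The log2 fold change was 5.77 beside 10.53 in Adamts16, 4.70 beside 9.78 in Cemip and 5.22 beside 8.23 in Cthrc1. Cthrc1 was at 3.92, 10.2 and 24.7 CPM in the naive Vegfc-deficient hearts M149, M150 and M34.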

How the data were processed

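The deposited values are counts of reads per gene. Per the submitters' processing notes, the authors used cutadapt 1.13, STAR, HTSeq 0.6.1p1 and the mm10 genome, and DESeq2 1.14.1. Libraries were stranded. The 11 libraries (4 groups) were fitted together with edgeR 4.0.16 (R 4.3.3) with TMM scaling, filterByExpr by group, the quasi-likelihood test and Benjamini-Hochberg adjustment over 14779 genes. Fold changes carry a prior count of 0.125. The SE given is the size of the log2 fold change divided by the square root of the test's F statistic. TPM and positions were computed with GENCODE M21 (24991 of 25006 genes matched), and TPM came from the deposited counts without TMM scaling. DESeq2 1.42.0, limma 3.58.1 and the other alternatives in the closing section were run beside it.

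Named genes were the 12 largest rises and falls in fold change among called autosomal genes (groups not overlapping, mean of at least 10 CPM in the higher group, no predicted genes), the 10 largest gains and losses in TPM, the members of each list with the smallest p or called against the list, other members beside their list's count, and checks of the labels. A few genes that the rule would name are not reported here. The comparison, its members and the gene lists were chosen with earlier results of these data known. Lists are described by counts and medians, with no test of the list.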

Additional observations from a re-analysis of the deposited data

How the results depend on the processing

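The count of genes called higher, 3882, became 6864 with library totals alone, 2253 at an adjusted p under 0.01 and 2370 with a log2 fold change of at least 1 in size, and 2098 to 4065 with 1 library left out. The count called lower, 3568, became 2145 with library totals alone and 2180 with the log2 fold change limit, and 2476 to 3616 with 1 library left out. The cause was not tested. DESeq2 size factors, DESeq2's Wald test, limma-voom, the 5 control libraries alone, the low-count filters, thinning, removal of the length trend, the fit without X and Y genes and the fit without M149 kept both counts within 1.5 times. The thinned libraries gave 3711 and 3462 calls, beside 3882 and 3568.

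Of 185 genes with values, 3 changed sign under some alternative, none of them called. The log2 fold change of Cxcl9 was -0.41 without M38 and up to 5.29 with another library left out. That of Dcn was -0.044 with DESeq2 size factors and in the Wald test, -0.15 with the length trend removed, -0.081 without M44 and -0.16 without M006, and at most 0.13 with another library left out. That of Vegfc was -0.017 with DESeq2 size factors, -0.016 in the Wald test, -0.16 without M44 and -0.33 without M006, and at most 0.31 with another left out. Calls lost without either naive heart, 1 at a time, included those of Adrb1, C1qb, C3, Cd3g, Cd74, Ckm, Col2a1, Col4a1, Cxcl10, H2-Ab1, Mpo, Nppa, Pdpn, Tcf21 and Trem2. Those of Ctsk, Lgals1 and Msln were lost in the same way. Apoe, Cpt1a, Klf4 and Pdia6 were among those lost without M44, and Acta2, Cd163, Cdc6, Fos, Gja1 and Ngfr among those lost without M45.

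Of the 49 list medians, 3 changed sign with library totals alone, 0.15 in Schwann cell, 0.20 in chaperone and 0.40 in clock genes. With the 5 control libraries alone, 3 neutrophil and 9 lysosomal genes were called higher, and with the length trend removed 8 neutrophil genes and 1 lymphatic gene were. With library totals alone, 11 chemokines, 9 neutrophil and 8 lysosomal genes were called higher and 5 blood endothelial and 3 fetal genes lower. The median of Schwann cell genes was 0.063 without X and Y genes, that of red cell genes 0.013 without M45, and that of adipocyte genes -0.19 without M40. No paired analysis was possible because the groups share no replicate number.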

Other observations

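Immediate early genes, the first responders to growth and stress signals, were higher in 6 of 13 and lower in 1 (median log2 fold change 0.20). Myc went from 7.94 and 6.71 CPM to 16.9, 16.0 and 19.4 CPM (log2 fold change 1.25, SE 0.17, edgeR adjusted p = 0.000478) and Fos from 3.21 and 2.99 CPM to 10.8, 12.7 and 18.1 CPM (log2 fold change 2.16, SE 0.53, edgeR adjusted p = 0.00683), and the groups did not overlap in either gene. Klf4 fell, from 71.0 and 54.9 CPM to 34.7, 32.2 and 30.7 CPM (log2 fold change -0.95, SE 0.23, edgeR adjusted p = 0.0064). Without naive M45, 1 member was called higher, and without naive M44 none was called lower (0 genes). Chaperone and unfolded protein response genes were higher in 2 of 16 and lower in 2 (median -0.24). Pdia6, which forms disulfide bonds in secreted proteins, went from 210.0 and 207 CPM to 338, 421 and 456 CPM (log2 fold change 0.96, SE 0.24, edgeR adjusted p = 0.00863). Without M44 no member was called (0 genes), and without M45 none was called higher (0 genes). Of 16 circadian clock genes, 1 was higher and 2 were lower. Per3 went from 19.3 and 24.4 CPM to 88.1, 40.3 and 61.0 CPM (log2 fold change 1.53, SE 0.32, edgeR adjusted p = 0.00302). Npas2, one of those that were lower, was at 1.16 and 1.99 CPM and 0.377, 0.44 and 0.77 CPM and was lost without M44, M45, M006 or M38.

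Nerve and fat were sparsely represented. The sympathetic neuron marker Th had 0 counts in both naive hearts and 0, 1 and 2 counts in the MI hearts, and it was not tested. Of 5 Schwann cell and sympathetic neuron markers tested, Dbh, which makes noradrenaline, fell from 13.6 and 15.1 CPM to 1.35, 2.40 and 0.697 CPM (log2 fold change -3.27, SE 0.46, edgeR adjusted p = 0.000516), or -3.90 without M38, and Ngfr, a neurotrophin receptor, rose from 0.714 and 0 CPM to 5.49, 1.93 and 2.94 CPM (log2 fold change 3.23, SE 0.98, edgeR adjusted p = 0.0194), a call that was lost without M45 (2.26), while without M44, which leaves the naive heart with 0 counts, the log2 fold change was 8.97. Of 2 adipocyte markers tested neither passed. Among noncoding genes, 29 of 204 long intergenic RNAs were higher and 62 lower, beside 3797 higher and 3418 lower of 14170 protein-coding genes. Among 496 X-linked genes tested, 161 were higher and 78 lower. Calls made up 48.2% of X-linked and 50.5% of autosomal genes, with median log2 fold changes of 0.39 and 0.12. Xist and Y genes separated the groups, so these values cannot be assigned to MI.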
